A study of Mus musculus with 26 samples.

Results

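The 6 genes described here make, break down or receive GABA, the main inhibitory transmitter of the striatum: Gad1, Gad2, Abat, Gabbr1, Gabbr2 and Gphn. They were taken by name, as 6 of the 31980 genes that could be joined across the deposited count tables, and all 6 were present in each of the 26 tables. Gad1 and Gad2 encode the 2 glutamate decarboxylases that make GABA from glutamate. Gad1 encodes the larger, constitutively active enzyme, and Gad2 encodes the form found mainly at nerve terminals. Abat encodes GABA transaminase, the mitochondrial enzyme that begins GABA breakdown. Gabbr1 and Gabbr2 encode the subunits of the GABA-B receptor, a G protein-coupled receptor in which the Gabbr1 subunit binds GABA and the Gabbr2 subunit couples to the G protein. Gphn encodes gephyrin, the scaffold that holds GABA-A and glycine receptors at inhibitory synapses and that also makes the molybdenum cofactor. Medium spiny neurons, the projection neurons of the striatum, use GABA as their transmitter and also receive it from one another and from interneurons.

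Ribosome-bound RNA was purified from dorsal striatum. The mice were adult and of the Drd2-EGFP/Rpl10a line CP101 (Drd2-TRAP), on FVB/N-Swiss Webster crossed for at least 9 generations to C57BL/6. In this line a tagged ribosomal protein is made under Drd2 regulatory sequence, so that antibodies to the tag pull down ribosomes of cells that use Drd2, chiefly indirect-pathway medium spiny neurons. Every mouse had intravenous self-administration in long-access sessions, with cocaine or saline, and cocaine mice are labelled as escalating or nonescalating in their intake. The purified libraries number 9 from non-escalating cocaine mice after withdrawal, 5 from saline mice after withdrawal, 2 from escalating, 4 from non-escalating and 3 from saline mice without withdrawal. The inputs, which are unpurified striatal RNA, number 3: 1 each from non-escalating mice, saline mice and saline mice after withdrawal. The labels do not state doses, sex or the length of withdrawal. Nothing in the labels says that libraries come from separate animals, so p-values measure the spread between libraries.

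Gene counts were 3279457 to 19122303 per purified library and 5016587 to 11549493 per input. The library numbers form 2 sets: set B holds 3 saline withdrawal libraries, 5 non-escalating withdrawal libraries and the saline withdrawal input, and set A holds the other 17. In set A, 16 titles call the library a copy of an earlier number, and what that means is not stated. Saline withdrawal replicate 2 of set A carries no such note, and its table follows the gene annotation of set B. Its number fits a gap among those earlier numbers, which is why set A was chosen for it, and both fits were also made with it in set B. Reads that fell on more than 1 gene and were not counted made up 0.942% to 2.85% in purified libraries and 8.61% to 12.8% in inputs. In 5 purified libraries more than 50% of uniquely aligned reads were assigned to no gene, here called reads outside genes. These are saline withdrawal replicates 1 and 2 of set A and non-escalating withdrawal replicate 1 of set A and replicates 3 and 4 of set B. Purification changed the markers of the labelled cells: 7 of 9 indirect-pathway markers were called higher than in input and 6 of 8 direct-pathway markers lower. Endothelial and mural markers were higher too, with all 12 fold changes positive and 3 called. Their median log2 fold change was 3.05, against 1.97 for indirect-pathway markers. Drd2, the D2 dopamine receptor, averaged 3033 ± 1600 CPM (counts scaled to the library's size, with TMM scaling) in the 12 purified libraries of conditions that have an input, and 473 ± 68.2 CPM in the 3 inputs (SD). Drd1, which marks direct-pathway neurons, averaged 29.8 ± 13.8 CPM in the purified libraries and 288 ± 41.1 CPM in the inputs (SD). Each list below was compared with input by edgeR's quasi-likelihood test with Benjamini-Hochberg adjustment over all genes, and a gene was called at an adjusted p under 0.05.

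The pairs Gad1 and Gad2, and Gabbr1 and Gabbr2, descend from common ancestor genes, so the counts rest on reads that tell them apart. Gad1 lies at chromosome 2, 70553072 to 70602014, and Gad2 at chromosome 2, 22622205 to 22693874, both on the plus strand of GRCm38. Their coding sequences were identical at 66.8% of aligned bases in the GENCODE M21 transcripts, and the longest run shared by the alignment was 17 bases. That run lies in the stretch around the codon for the lysine that binds the cofactor pyridoxal phosphate. The 90 aligned bases centred on that run are shown 5′ to 3′, with the 24 bases that differ in capitals (coding bases 1167 to 1256 of Gad1 and 1143 to 1232 of Gad2).
Gad1: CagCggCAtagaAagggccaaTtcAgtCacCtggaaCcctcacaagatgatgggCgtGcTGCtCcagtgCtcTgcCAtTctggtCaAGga
Gad2: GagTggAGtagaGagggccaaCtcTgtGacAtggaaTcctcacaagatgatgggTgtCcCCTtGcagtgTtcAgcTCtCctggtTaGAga
Outside the shared run the differing bases recur every few positions. The coding sequences of Gabbr1 (chromosome 17, 37045966 to 37075067, plus strand) and Gabbr2 (chromosome 4, 46662305 to 46991873, minus strand) were identical at 59.2% of aligned bases, with a longest shared run of 12 bases. Abat lies at chromosome 16, 8513429 to 8621568, and Gphn at chromosome 12, 78226379 to 78684772, both on the plus strand. Gad1os, a gene on the opposite strand, overlaps the Gad1 locus but shares 0 exon bases with it. It had 0 to 55 counts in the purified libraries and 1 to 6 in the inputs, against at least 665 counts of Gad1 in every library.

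Across the 23 purified libraries the counts ranged from 1810 to 22045 for Gad2, from 1395 to 15951 for Gabbr1, from 665 to 6058 for Gad1, from 281 to 12162 for Abat, from 243 to 8121 for Gphn and from 84 to 1441 for Gabbr2. Divided by exon length (CPM per kilobase of the union of annotated exons), Gad2 stood highest in the purified libraries at 160 ± 55.6, followed by Gabbr1 at 72.3 ± 26.6, Abat at 47.0 ± 33.1, Gad1 at 39.5 ± 12.8, Gphn at 30.9 ± 19.1 and Gabbr2 at 8.81 ± 4.49 (SD, n = 23). The order of the middle genes depends on the length used. With the longest coding transcript, Gad1 was at 89.9 ± 29.3 and Gabbr1 at 107 ± 39.4 CPM per kilobase, while Gad2 stayed highest at 163 ± 56.9 and Gabbr2 lowest at 10.2 ± 5.22 (SD, n = 23). On either length the receptor subunit Gabbr2 had the lowest ribosome-bound level per length of the 6 genes and the terminal form of the decarboxylase the highest.

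**Figure D1:**
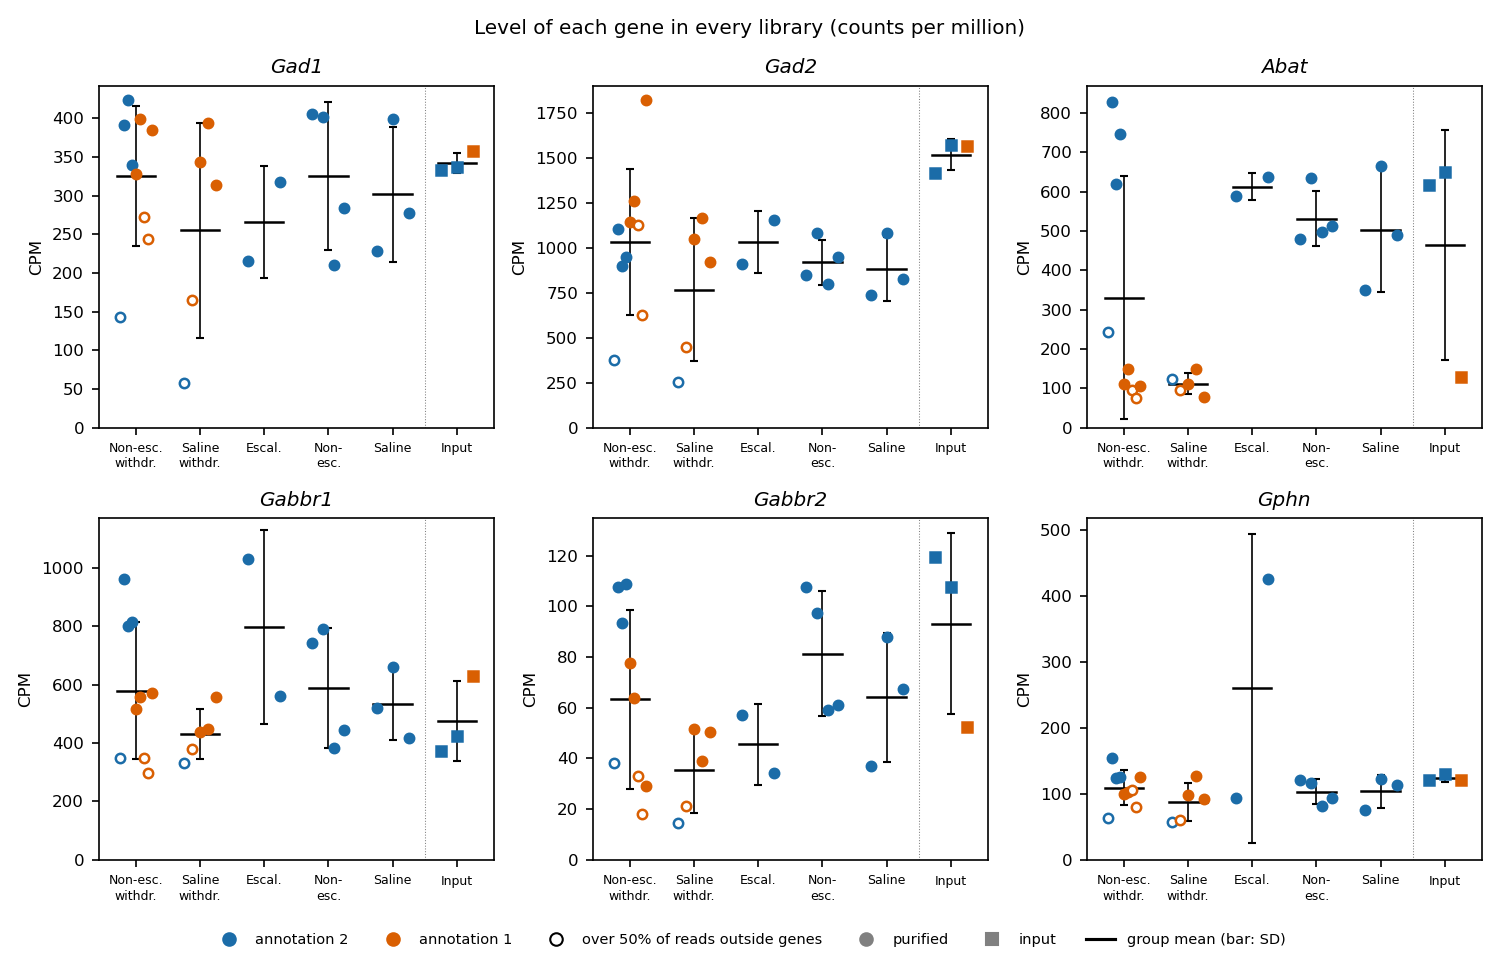
CPM of each of the 6 genes (y axes, linear, from 0) in every library, by group (x axes: the 5 purified groups, then the inputs); points are libraries, lines are group means and bars are SD. Blue and orange mark the 2 gene annotations used for the count tables, and open points are libraries with over 50% of reads outside genes. Abat lies at 74.7 to 149 CPM in the orange libraries, and Gphn at 426 CPM in 1 escalating library.

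Of the 2 decarboxylases, Gad2 was lower in purified libraries than in input and Gad1 was not called. Gad2 ran from 255 to 1166 CPM in the 12 purified libraries, with a median of 886 CPM. In the inputs it was at 1569, 1419 and 1574 CPM in saline withdrawal, non-escalating and saline. All 12 purified libraries lay below all 3 inputs. Of all 23 purified libraries, 22 lay below all inputs and 1, non-escalating withdrawal replicate 5 of set B at 1824 CPM, above them. The log2 fold change was -0.66 ± 0.19 (SE; 95% interval -1.07 to -0.25), with an adjusted p of 0.0492 by edgeR's quasi-likelihood test. Gad2 was the only one of the 6 genes called, and 6.85% of the 16426 genes tested were called in this comparison. Gad1 averaged 290 ± 109 CPM in the 12 purified libraries and 342 ± 13.2 CPM in the 3 inputs (SD). Its purified libraries lay on both sides of the inputs, with 7 below and 4 above them all, and its log2 fold change was -0.06 ± 0.28 (SE; interval -0.64 to 0.53; adjusted p = 0.915).

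The call of Gad2 sits at the threshold. Its fold change stayed negative in every setting tried, at -0.83 to -0.53 on the log2 scale, but the adjusted p passed 0.05 in several. A low-count filter set by group sizes, which was run first and then replaced by the one set by the design, gave 0.0532, and no filter gave 0.0538. The call was also lost without the term for library set (0.128), with saline withdrawal replicate 2 counted in set B (0.0604) and over libraries of annotation 2 alone (0.102). It was kept with DESeq2 (0.00592), RLE factors (0.0268), limma voom (0.0293), the share of reads outside genes as a covariate (0.0327) and without the libraries over 50% outside genes (0.0118). Leaving out 1 library at a time ended it in 11 of 15 fits. Without the saline, non-escalating or saline withdrawal input the adjusted p was 0.172, 0.156 or 0.103. Without non-escalating replicate 1, 3 or 4 it was 0.0591, 0.0576 or 0.0712, without saline replicate 1 or 4 it was 0.0738 or 0.0820, and without saline withdrawal replicate 1, 2 or 3 of set B it was 0.0770, 0.0593 or 0.0703.

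Within each library, the ratio of Gad2 to Gad1 counts needs no scaling between libraries. It averaged 3.08 ± 0.59 in the 12 purified libraries and 4.44 ± 0.21 in the 3 inputs (SD). The purified libraries ran from 2.09 to 4.40, and the inputs were at 4.27, 4.39 and 4.67, so that only saline withdrawal replicate 1 of set A, the library with 70.7% of reads outside genes, reached into the inputs' range. The exact permutation test gave p = 0.0132 (two-sided; smallest possible 0.0022), and the adjusted p over 8 ratio tests was 0.105. This ratio and that of the GABA-B subunits below were chosen after the levels were seen. The test uses the same Gad2 counts as the comparison above, so it is not separate evidence. It also took no account of condition or library set. In set A alone the ratio was 3.11 ± 0.68 (SD, n = 9) in purified libraries and 4.47 ± 0.29 (SD, n = 2) in inputs, with an exact p of 0.0727. The 2 escalating libraries had ratios of 4.23 and 3.64, and the 9 non-escalating withdrawal libraries ran from 2.12 to 4.74 with a median of 2.82.

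Markers of striatal GABAergic interneurons, which also use both decarboxylases, moved in the same direction as Gad2. Of 10 markers, 8 were tested, all 8 had negative fold changes and 4 were called lower, with a median log2 fold change of -2.77 against 0.17 over all genes tested. Their summed level was 29.2 to 142 CPM in the 12 purified libraries and 337 to 661 CPM in the 3 inputs. Sst, the somatostatin precursor, averaged 14.1 ± 6.17 CPM in purified libraries and 279 ± 84.6 CPM in inputs (SD), while Pvalb, which marks fast-spiking interneurons, averaged 0.755 ± 1.66 CPM in purified libraries, with 5 of 12 at 0, and 1.94 ± 2.48 CPM in inputs. The direction was not particular to interneurons. All 8 markers of direct-pathway neurons, which also use GABA, had negative fold changes (median -2.59). Astrocyte and cortical glutamatergic markers were lower as well (medians -2.87 and -3.31), with 7 of 12 and 0 of 6 called. Summed cortical markers were at 352 and 215 CPM in the non-escalating and saline inputs of set A, and at 20.1 CPM in the set B input. The purified saline withdrawal libraries of set B, at 6.75 to 36.4 CPM, lay on both sides of that input. Indirect-pathway markers and endothelial and mural markers went the other way (medians 1.97 and 3.05). The part of interneuron or direct-pathway RNA in the Gad2 difference was not tested. In such bulk samples fewer cells of a type and less RNA per cell cannot be told apart.

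Neither GABA-B subunit was called against input. Gabbr1 averaged 509 ± 149 CPM in the 12 purified libraries and 475 ± 136 CPM in the 3 inputs (SD), a log2 fold change of 0.19 ± 0.25 (SE; interval -0.32 to 0.71; adjusted p = 0.652). Gabbr2 averaged 57.9 ± 28.8 CPM in the purified libraries and 93.2 ± 35.8 CPM in the inputs (SD), at -0.49 ± 0.27 (SE; interval -1.06 to 0.08; adjusted p = 0.259). The purified libraries lay on both sides of the inputs for Gabbr1, while for Gabbr2 6 of 12 lay below all inputs and none above them all. The inputs themselves differed. Gabbr1 was at 629 CPM in the saline withdrawal input against 373 and 423 CPM in the non-escalating and saline inputs. Gabbr2 was at 52.5 CPM against 119 and 108 CPM. The saline withdrawal input is of annotation 1 and the other 2 are of annotation 2. Taken within each annotation, all 12 purified libraries lay below the inputs for Gabbr2. The nearest were at 107.5 against 107.6 CPM (annotation 2) and at 51.7 against 52.5 CPM (annotation 1). For Gabbr1 the purified libraries of annotation 1, at 379 to 558 CPM, lay below their input, and those of annotation 2 on both sides.

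The ratio of Gabbr1 to Gabbr2 counts was 10.7 ± 5.22 in purified libraries and 6.35 ± 4.91 in inputs (SD, n = 12 and 3; exact permutation p = 0.0703, adjusted p = 0.145 over the 8 ratio tests). In set A all 9 purified libraries (6.17 to 23.1) lay above both inputs (3.12 and 3.93), with an exact p of 0.0364, the adjusted p again 0.145. In set B the order was the other way, with the 3 purified libraries at 8.45, 11.1 and 11.4 and the input at 11.99. The 2 escalating libraries had ratios of 18.1 and 16.4, above every non-escalating (6.44 to 8.12) and saline (6.17 to 14.1) library without withdrawal. That difference was not tested. High ratios were not particular to escalating libraries, since withdrawal libraries reached 23.1 after saline and 19.6 after non-escalating cocaine. Those libraries are unlike the escalating ones in other ways. The one at 23.1 has 70.7% of its reads outside genes, and the one at 19.6 is of set B and annotation 1. In set A, where all were counted with annotation 2 as the escalating libraries were, non-escalating withdrawal libraries ran from 7.47 to 9.13.

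Abat and Gphn were not called against input either. Abat averaged 349 ± 224 CPM in the 12 purified libraries and 465 ± 293 CPM in the 3 inputs (SD), with a log2 fold change of -0.24 ± 0.21 (SE; interval -0.69 to 0.20; adjusted p = 0.490). Both kinds of library divide by the annotation of their tables, as given after the related genes. Gphn averaged 96.9 ± 24.1 CPM in the purified libraries and 124 ± 5.08 CPM in the inputs (SD), at -0.22 ± 0.20 (SE; interval -0.65 to 0.20; adjusted p = 0.504). For Gphn, 9 of 12 purified libraries lay below all inputs and none above. Over the 6 genes the median log2 fold change was -0.23, against 0.17 over all 16426 genes tested, and 5 of 6 were negative.

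**Figure D2:**
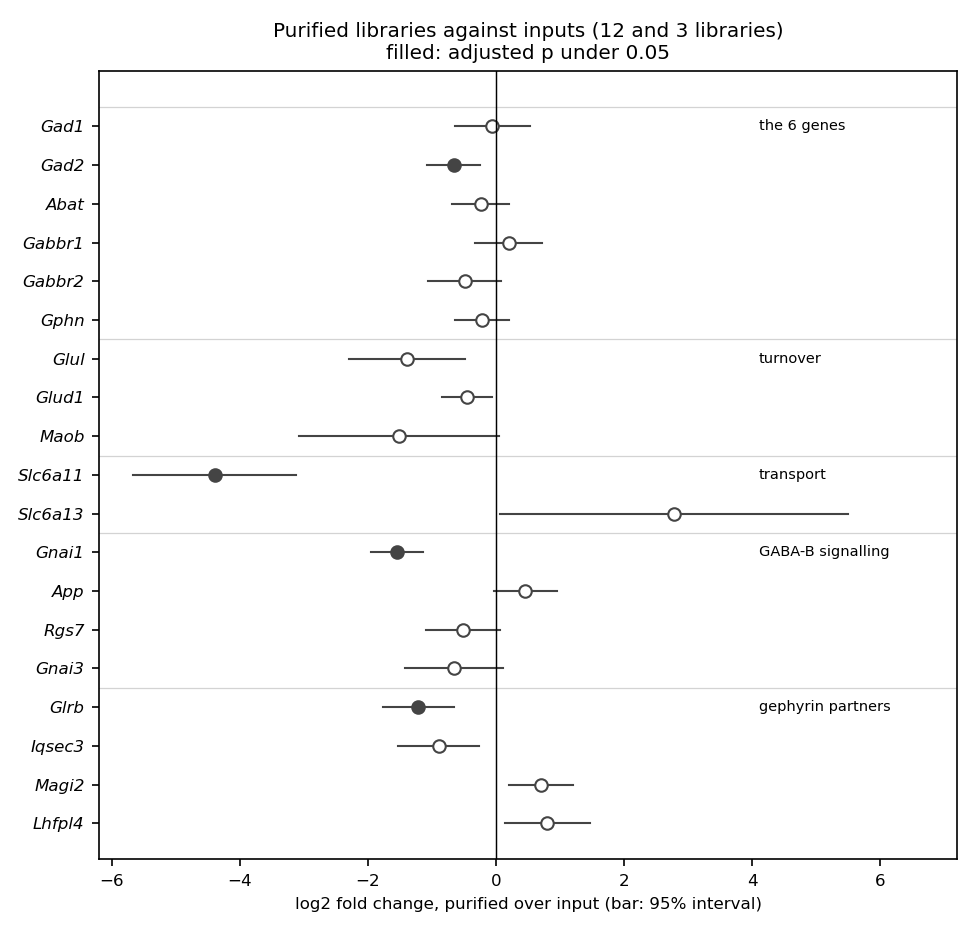
Log2 fold change of purified over input libraries (x axis) with 95% intervals (bars) for the 6 genes and genes from 4 related lists (y axis); filled points were called. Gad2 is at -0.66 and Slc6a11 at -4.40; Slc6a12 is left out because it had 0 counts in the inputs.

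Among 4 lists of related genes, 50 of 53 were tested and 5 were called, where 6.85% of all genes tested were called, so the counts of 1 or 2 per list that follow show nothing particular to a list. Of 11 enzymes of GABA and glutamate turnover, 1 was lower and none higher (median log2 fold change -0.29). Glul, the glial glutamine synthetase, was at 260 ± 161 CPM in purified libraries and 572 ± 113 CPM in inputs (adjusted p = 0.0605), and Glud1, glutamate dehydrogenase, was at 183 ± 30.4 CPM in purified libraries and 269 ± 68.5 CPM in inputs (adjusted p = 0.135). Maob, a monoamine oxidase that takes part in GABA synthesis from putrescine in astrocytes, was at 6.75 ± 4.89 CPM and 12.4 ± 2.87 CPM (adjusted p = 0.206), in purified and input libraries (SD). Aldh5a1, which completes GABA breakdown after Abat, was at 87.9 ± 24.4 CPM in purified libraries and 121 ± 27.8 CPM in inputs (adjusted p = 0.408).

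Of 8 carriers of GABA and glutamine, 1 was lower and 1 higher (median 0.03). Slc6a11, the GABA transporter GAT-3 of astrocytes, was at 4.83 ± 3.12 CPM in purified libraries and 105 ± 80.3 CPM in inputs (SD). All 12 purified libraries lay below all inputs, and the log2 fold change was -4.40 ± 0.60 (SE; adjusted p = 0.000402). Astrocyte markers moved the same way, with 7 of 12 called lower and a summed level of 164 to 408 CPM in purified libraries and 2009 to 3101 CPM in inputs. Slc6a12, the betaine and GABA transporter BGT-1, was at 15.9 ± 19.1 CPM in purified libraries (SD) and had 0 counts in the 3 inputs together. It was at least 119-fold higher, set against 3 counts over the inputs together, and 11 of 12 purified libraries held it. Endothelial and mural markers, of which 3 of 12 were called higher, summed to 285 to 10115 CPM in purified libraries and 136 to 689 CPM in inputs, and their part in the Slc6a12 result was not tested. The vesicular GABA carrier Slc32a1, which loads GABA into synaptic vesicles, was at 155 ± 72.8 CPM in purified libraries and 179 ± 6.71 CPM in inputs (SD; adjusted p = 0.890).

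Of 18 tested genes of GABA-B signalling, 1 was lower and none higher (median 0.20). Gnai1, an inhibitory G protein alpha subunit through which GABA-B receptors can act, was at 103 ± 33.2 CPM in purified libraries and 335 ± 59.1 CPM in inputs (SD). Every purified library lay below every input, at a log2 fold change of -1.55 ± 0.19 (SE; adjusted p = 0.000164). App, the amyloid precursor protein gene, whose shed product binds the Gabbr1 subunit, was at 895 ± 229 CPM and 650 ± 86.2 CPM (adjusted p = 0.228), and Rgs7, which speeds the shutoff of Go signalling, at 91.2 ± 41.5 CPM and 146 ± 23.7 CPM (adjusted p = 0.248), in purified and input libraries (SD). Of 13 tested partners of gephyrin, 1 was lower and none higher (median 0.03). It was Glrb, the glycine receptor beta subunit that binds gephyrin, at 50.3 ± 19.4 CPM in purified libraries and 126 ± 14.5 CPM in inputs (SD), with a log2 fold change of -1.22 ± 0.26 (SE; adjusted p = 0.0124). Iqsec3, which binds gephyrin, was at 59.8 ± 20.6 CPM and 113 ± 50.5 CPM (adjusted p = 0.0798), and Lhfpl4, which holds GABA-A receptors at the synapse with Nlgn2, at 153 ± 56.7 CPM and 102 ± 43.0 CPM (adjusted p = 0.124), in purified and input libraries (SD).

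The level of Abat divided the libraries by the annotation of their count tables. The 16 tables of annotation 2 had a median Abat level of 602 CPM, and the 10 tables of annotation 1 (all 9 of set B and saline withdrawal replicate 2 of set A) a median of 108 CPM. The difference of 2.48 on the log2 scale, annotation 2 minus annotation 1, ranked 10th of 11102 genes that averaged 5 CPM or more, of which 40 shifted by at least 2. The inputs divided the same way, at 616 and 651 CPM in the non-escalating and saline inputs (annotation 2) and at 128 CPM in the saline withdrawal input (annotation 1). Among purified libraries of non-escalating withdrawal, the 4 of set A (annotation 2) were at 244, 828, 618 and 746 CPM and the 5 of set B (annotation 1) at 112, 149, 94.5, 74.7 and 106 CPM. The lowest of the 4 is a library with over 50% of reads outside genes, and the 2 annotations did not overlap in this group. Saline withdrawal replicate 2, the library of set A that was counted with annotation 1, was at 96.3 CPM. Replicate 1 of set A, of annotation 2, was at 124 CPM with 70.7% of its reads outside genes. Annotation and library set cannot be told apart here except through that single library. The other genes shifted less, by 0.79 for Gabbr2, -0.29 for Gad2, 0.23 for Gphn, 0.17 for Gabbr1 and -0.05 for Gad1 on the log2 scale.

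Levels of all 6 genes were lower in purified libraries with more reads outside genes. In the 5 libraries over 50%, Gad1 averaged 177 ± 85.1 CPM against 337 ± 69.8 CPM in the other 18 (SD), Gabbr1 341 ± 29.7 against 623 ± 192 CPM and Gphn 73.9 ± 20.2 against 128 ± 76.8 CPM. Gad2 had a median of 451 CPM in the 5 libraries and 1001 CPM in the other 18. In 4 of the 5, all 6 genes were below their purified median, and in the remaining library 4 were. Over the 23 libraries the share of reads outside genes and log2 CPM had a Pearson r of -0.85 for Gad1 (rho = -0.90), -0.79 for Gabbr1 (rho = -0.82), -0.77 for Gabbr2 (rho = -0.76), -0.77 for Gad2 (rho = -0.56), -0.61 for Gphn (rho = -0.76) and -0.56 for Abat (rho = -0.62). Permutation p-values, two-sided with 100000 resamples and adjusted over the 6 genes, were 3e-05 to 0.00534 for r and 3e-05 to 0.00662 for rho. The p behind the smallest was 1e-05, the lowest these resamples can give.

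With the 2 libraries of most extreme share left out, r was between -0.77 (Gabbr1) and -0.48 (Gphn). Within set A r ran from -0.94 (Gad1) to -0.62 (Gphn) over 15 libraries, and within set B from -0.99 (Gad1) to -0.49 (Gabbr2) over 8. For Gabbr1 and Gabbr2 the relation in set B rests on 2 libraries, since without them r was 0.15 and 0.41. Such a relation is not rare: the median r over 11041 genes was -0.15, and 3.22% of genes had an r as low as that of Gad1 or lower, 10.5% as that of Gad2 and 26.5% as that of Abat. The summed indirect-pathway markers were also lower in the 5 libraries, at 4600 ± 1371 CPM against 11512 ± 3997 CPM in the other 18, and summed endothelial and mural markers higher, at 5568 ± 2896 against 1576 ± 1399 CPM (SD). Fits with the share as a covariate, and without the 5 libraries, were made for every comparison.

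**Figure D3:**
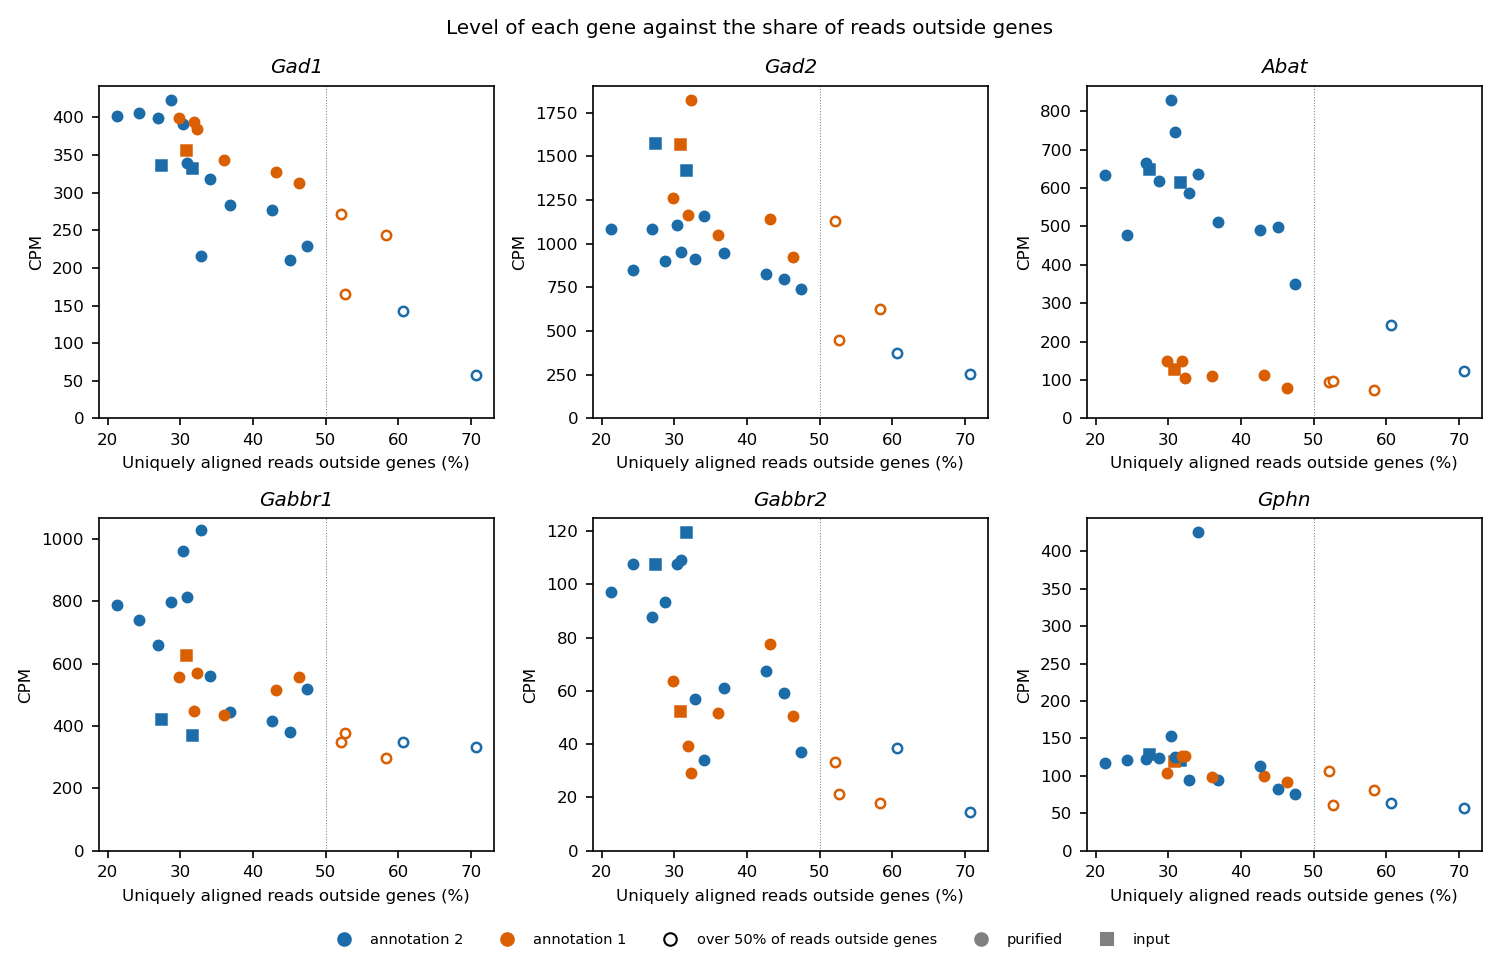
CPM of each gene (y axes, linear, from 0) against the percent of uniquely aligned reads outside genes (x axes) in 26 libraries; circles are purified libraries, squares inputs, and colours the 2 annotations. The dotted line is at 50%, and open points lie above it. Gad1 falls to 57.9 CPM in the library with 70.7% of reads outside genes, and Abat forms 2 bands by annotation.

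Across the 5 purified groups none of the 6 genes was called in any of the 7 comparisons. By edgeR 0 of the 6 genes and 0 of 16912 genes tested (0%) were called in each, limma voom called 0 as well, and DESeq2 called 0 of the 6 in each and between 1 and 12 of all genes. Ordered by group mean, the neighbouring groups of each gene overlapped in all 24 cases, and in 23 of them the means differed by less than the larger SD. The exception was Abat, at 613 ± 35.2 CPM in escalating (n = 2) and 531 ± 70.1 CPM in non-escalating libraries (SD, n = 4). Such an order sets close means side by side, so it does not describe groups farther apart. The same count was not made for other genes, so it shows nothing particular to these 6. Abat at 78.7 to 149 CPM in saline withdrawal, for example, did not overlap its 350 to 665 CPM in saline libraries. Saline withdrawal had the lowest mean for all 6 genes, for example 255 ± 139 CPM for Gad1 and 769 ± 396 CPM for Gad2 (SD, n = 5), and it holds 2 libraries over 50% outside genes. For Abat, at 112 ± 26.8 CPM there (SD, n = 5), 4 of those 5 libraries were also counted with annotation 1, and its median level was 602 CPM under annotation 2 and 108 CPM under annotation 1.

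Escalating against non-escalating and saline mice, the largest differences were those of Gphn. Gphn was at 94.3 and 426 CPM in the 2 escalating libraries, against 121, 117, 82.3 and 94.4 CPM in non-escalating and 76.0, 123 and 113 CPM in saline libraries. Replicate 2 stood far above the rest, at 2.77 times the highest of the other 22 purified libraries, which ranked 12th of 11041 genes on that measure, while replicate 1 lay within the range of both other groups. The log2 fold change was 1.33 ± 0.42 (SE; interval 0.46 to 2.21; adjusted p = 1, edgeR) against non-escalating and 1.33 ± 0.46 (SE; interval 0.39 to 2.27; adjusted p = 1, edgeR) against saline. Unadjusted p was 0.00453 and 0.00785, the only values under 0.05 among the 6 genes in these comparisons, in which 558 and 518 genes of all tested reached that level. Without replicate 2 the fold changes were -0.14 and -0.14. The 2 comparisons share the escalating libraries, so they are not separate evidence.

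For the other 5 genes the escalating libraries gave wide intervals. Gabbr2 was at 56.9 and 34.2 CPM in escalating, against 108, 97.2, 59.3 and 61.1 CPM in non-escalating libraries. Its log2 fold change was -0.83 ± 0.64 (SE; interval -2.16 to 0.49; unadjusted p = 0.207, edgeR). Gabbr1 was at 1030 and 561 CPM, against 741, 789, 381 and 446 CPM, at 0.44 ± 0.42 (SE; interval -0.44 to 1.32). Gad1 was at -0.28 (interval -1.31 to 0.75), Gad2 at 0.17 (interval -0.72 to 1.05) and Abat at 0.21 (interval -0.92 to 1.34), so that differences inside these intervals could not be detected with 2 escalating libraries.

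For non-escalating cocaine against saline without withdrawal the groups lay close together. Gad1 averaged 325 ± 95.4 CPM in non-escalating and 302 ± 87.8 CPM in saline libraries (SD, n = 4 and 3), and Gad2 920 ± 126 and 884 ± 179 CPM. The 6 log2 fold changes ran from -0.00 (Gphn) to 0.35 (Gabbr2), none had an unadjusted p under 0.05, against 356 of all genes, and the narrowest interval, that of Gad2, ran from -0.72 to 0.85. Their median was 0.10, against -0.00 over all genes. The signs were not stable: with the share of reads outside genes as a covariate, 5 of the 6 were negative, at -0.14 (Abat), -0.15 (Gabbr1), -0.22 (Gad1), -0.16 (Gad2) and -0.19 (Gphn), and Gabbr2 was at 0.02.

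After withdrawal, all 6 genes had positive fold changes for cocaine against saline, from 0.36 (Gphn) to 0.81 (Abat), and none was called. Gad2 ran from 376 to 1824 CPM in non-escalating withdrawal libraries with a median of 1106, and was at 1050, 1166, 924, 255 and 451 CPM in saline withdrawal libraries. The groups overlapped, and its log2 fold change was 0.60 ± 0.29 (SE; interval 0.00 to 1.2; adjusted p = 0.749, unadjusted 0.0489). It was the 1 gene of the 6 under 0.05 unadjusted, against 882 of all genes, and the median over the 6 was 0.55 against 0.01 over all genes. No cell-type marker of the following lists was called in the same comparison, but all 8 markers of medium spiny neurons of both pathways (median 0.60) and 8 of 9 indirect-pathway markers (median 0.63) had positive fold changes, and all 12 endothelial and mural markers negative ones (median -1.03). Their part in the result was not tested. The 2 sets did not give the same picture. In set B, with 5 and 3 libraries, the fold changes ran from -0.12 (Gad1) to 0.17 (Gad2). In set A, with 4 and 2 libraries, they ran from 1.01 (Gphn) to 2.50 (Abat), and both saline withdrawal libraries of set A are over 50% outside genes. For Abat, 1 of those 2 was also counted with annotation 1 and all 4 cocaine libraries with annotation 2, so that the value of 2.50 cannot be told apart from the 2.48 between annotations. Without the 5 libraries over 50% the fold changes were between 0.03 (Gphn) and 0.41 (Gad2), and with the share as a covariate between 0.06 (Gabbr1) and 0.57 (Abat). Abat, at 0.81 in the fit of all libraries, was at 0.43 with saline withdrawal replicate 2 placed in set B, at 0.11 without the libraries over 50% and at 1.56 with no term for set.

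Withdrawal against none after saline gave negative fold changes for all 6 genes, from -0.12 (Gabbr1) to -0.91 (Abat), with Gad2 at -0.89 ± 0.41 (SE; interval -1.73 to -0.04; adjusted p = 0.782, unadjusted 0.0415). Gad2 was the 1 gene of the 6 under 0.05 unadjusted, against 885 of all genes. Without the libraries over 50% outside genes, 5 of the 6 turned positive, at 0.30 for Gad1, 0.45 for Abat, 0.53 for Gabbr1, 0.43 for Gabbr2 and 0.35 for Gphn, and Gad2 was at -0.24. Abat was at -0.39 with replicate 2 placed in set B and at -2.16 with no term for set, and Gad2 at -0.97 and -0.18. In this comparison all 8 markers of medium spiny neurons of both pathways were negative (median -0.68) and all 12 endothelial and mural markers positive (median 1.44), with none called, and their part was not tested. After non-escalating cocaine, withdrawal against none gave -0.35 (Gad2) to 0.10 (Gabbr1), and all 6 intervals included 0, with 0 of the 6 and 762 of all genes under 0.05 unadjusted. Without the libraries over 50% outside genes all 6 were positive, from 0.11 (Gad2) to 0.55 (Gabbr1), and with the share as a covariate 5 of 6 were, from 0.09 (Abat) to 0.45 (Gabbr1), with Gad2 at -0.08. The difference between the cocaine effects with and without withdrawal was 0.22 (Gabbr1) to 0.72 (Abat), with 0 of the 6 and 345 of all genes under 0.05 unadjusted. These comparisons share groups with each other and are not independent.

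**Figure D4:**
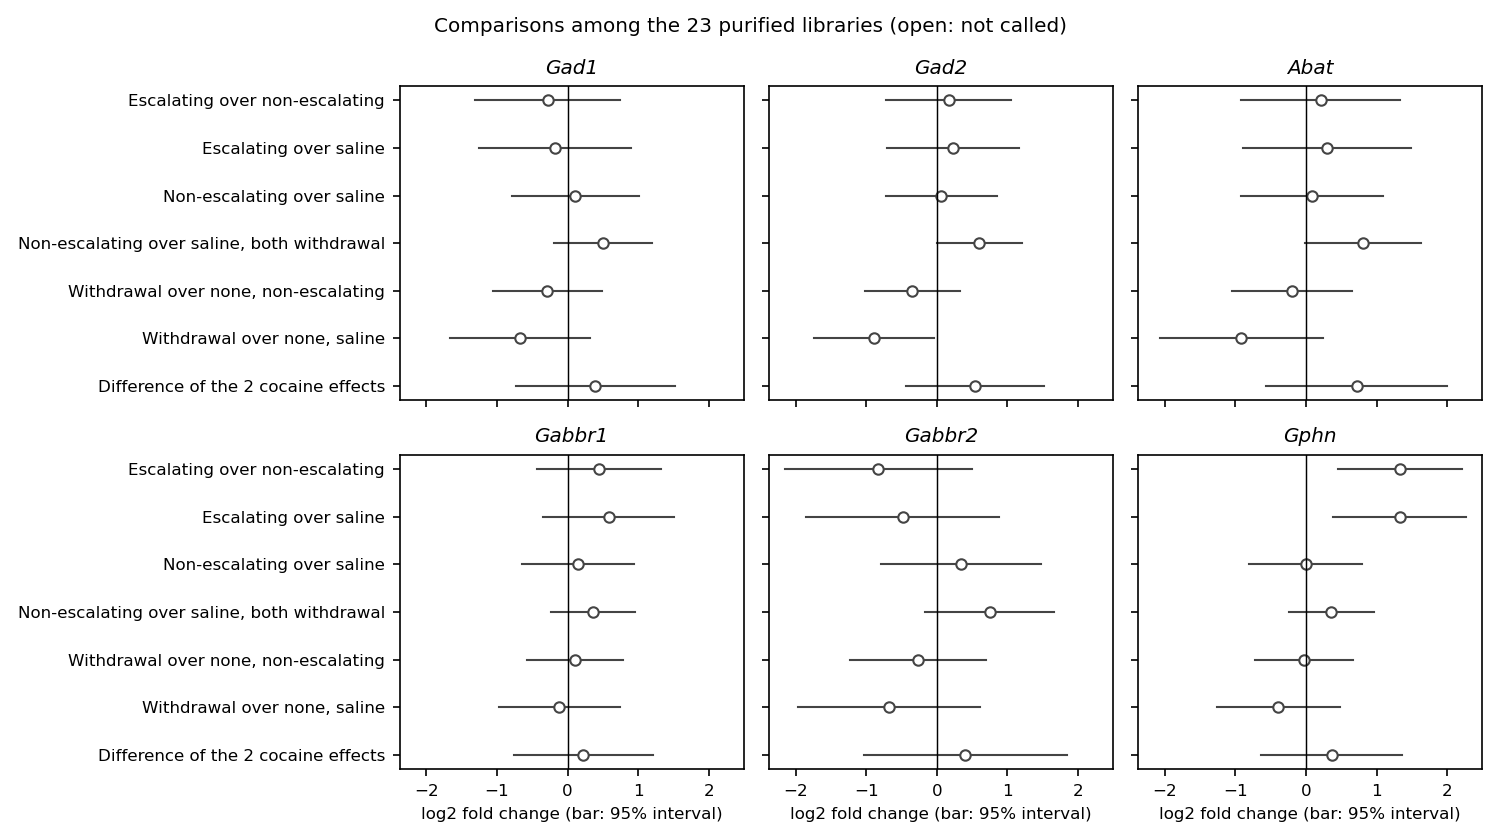
Log2 fold changes (x axes) with 95% intervals (bars) of the 6 genes in the 7 comparisons among 23 purified libraries (y axis); open points were not called. The intervals of Gphn for escalating mice lie above 0, at 0.46 to 2.21 and 0.39 to 2.27, and rest on 1 library.

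Among purified libraries, 0 of 11 turnover genes, 0 of 8 carriers, 0 of 18 GABA-B signalling genes and 0 of 13 gephyrin partners were called by edgeR in any of the 7 comparisons. For cocaine against saline after withdrawal, 15 of 18 GABA-B signalling genes had positive fold changes with a median of 0.53, against 0.01 over all genes, and 5 had an unadjusted p under 0.05, against 882 of 16912 genes. For withdrawal against none after saline, 15 of the 18 were negative with a median of -0.57, against 0.08 over all genes. The marker values of both comparisons are given beside the 6 genes. Their summed level was 3389 ± 566 CPM in the 5 libraries over 50% outside genes and 6010 ± 1320 CPM in the other 18 (SD).

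The genes whose levels were most like those of the members over 23 purified libraries were found among 10369 genes by Pearson r of log2 CPM. For Gad1 they were Pdpk1, a kinase upstream of Akt (r = 0.97, rho = 0.90), Adgrb3, an adhesion receptor of synapses (r = 0.96, rho = 0.90), and Grm5, the metabotropic glutamate receptor mGluR5 (r = 0.96, rho = 0.87). For Gad2 they were Napb (r = 0.96, rho = 0.82), which encodes a SNAP protein of vesicle fusion, and the active-zone gene Erc2 (r = 0.95, rho = 0.74). Gabbr1 was most like Kazn (r = 0.94), Cdip1 (r = 0.93) and Drd2 (r = 0.92), and Gabbr2 most like Fam102a (r = 0.94), Kirrel3 (r = 0.92) and Rgs9 (r = 0.91), the striatal regulator of G protein signalling. Abat was most like Ubb, Pou3f4 and Igsf8 (r = 0.94, 0.94 and 0.93), in libraries that divide by annotation. For Gphn the values were lower, with Ccndbp1, Mrps14 and Wrb at r = 0.82, 0.81 and 0.80, and they rest on escalating replicate 2. Without that library the nearest genes were Snap91, Rpl4 and Hivep2 at r = 0.91 each. Depth and the share of reads outside genes differed between the libraries. Their part in these likenesses was not tested, so these are descriptions only.

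Among the members themselves, Gad1 and Gad2 had r = 0.88 (rho = 0.63) and Gabbr1 and Gabbr2 r = 0.73 (rho = 0.69) over the same 23 libraries. Abat had r = 0.26 (rho = 0.34) with Gad1 and 0.16 (rho = 0.12) with Gad2. The ratio of Gad2 to Gad1 was 3.16 ± 0.83 in non-escalating withdrawal and 3.22 ± 0.67 in saline withdrawal libraries (SD, n = 9 and 5; exact permutation p = 0.809). Without withdrawal it was 2.98 ± 0.75 in non-escalating and 2.98 ± 0.26 in saline libraries (SD, n = 4 and 3; exact permutation p = 0.971). The ratio of Gabbr1 to Gabbr2 was 10.7 ± 4.39 in non-escalating withdrawal and 14.3 ± 5.94 in saline withdrawal libraries (SD, n = 9 and 5; exact permutation p = 0.186), and without withdrawal 7.18 ± 0.713 in non-escalating and 9.25 ± 4.22 in saline libraries (SD, n = 4 and 3; exact permutation p = 0.629). All 4 tests were two-sided, the groups overlapped in each, and the adjusted p-values over the 8 ratio tests were 0.297 to 0.971. Both ratios were chosen after the levels were seen.

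**Figure D5:**
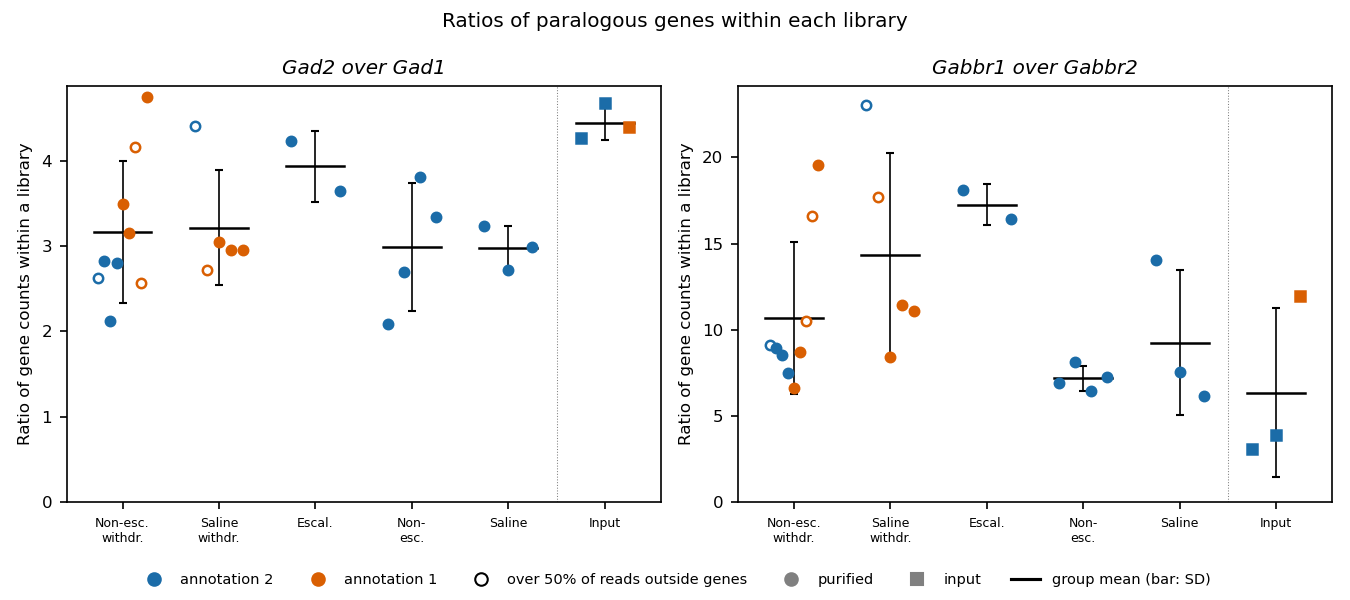
Ratio of Gad2 to Gad1 counts (left) and of Gabbr1 to Gabbr2 counts (right) in every library (y axes, linear, from 0) by group (x axes); lines are group means and bars SD. The inputs lie at 4.27 to 4.67 for Gad2 to Gad1. For Gabbr1 to Gabbr2 the 2 escalating libraries lie at 18.1 and 16.4, and withdrawal libraries reach 23.1 (saline) and 19.6 (non-escalating).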

How the data were processed

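Each library's table lists raw read counts by gene symbol, as deposited. The submitters' processing notes name STAR 2.0.0e, HTSeq and mm10; the gene annotation, strand setting and kit are not stated. The tables follow annotation 1 (32531 genes, 10 tables) or annotation 2 (32657 genes, 16 tables). Joining kept the 31735 symbols in common plus 245 genes listed under an older name in either, and dropped 551 and 677 symbols.

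The counts went into edgeR 4.0.16 under R 4.3.3, with TMM scaling, filterByExpr by design, the quasi-likelihood F test and Benjamini-Hochberg adjustment, calling at 0.05. The 23 purified libraries were fitted together on group and library set (16912 genes, 17 residual degrees of freedom). Purified and input libraries of 3 conditions were fitted on condition, kind and set (16426 genes, 10 residual degrees of freedom). The fits were tested on simulated data. Intervals are 95%, log2 CPM used a prior count of 2, and coordinates, lengths and sequences are from GENCODE M21. Alternatives used DESeq2 1.42.0, limma 3.58.1 and other settings. Among 56 pairs of libraries of the same group none were identical, and chi-square per degree of freedom was at least 11.8.

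The members and lists were chosen with earlier results of these data known. Genes named are the members, those of each related list with the lowest p against input (up to 4), and the 3 genes most like each member. Aldh5a1 and Slc32a1 were added after their values were seen. Kcnj5, Insyn1 and Insyn2a were not tested. A few genes chosen this way are left unreported.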

Additional observations from a re-analysis of the deposited data

Results flagged for a closer look

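The ratio of Gad2 to Gad1 counts in saline withdrawal replicate 1 of set A, at 4.40, stood apart from the other 4 saline withdrawal libraries, which lay between 2.72 and 3.05. It was flagged because its gap to the nearest other library is large for a group of 5 by Dixon's criterion. That library has 70.7% of its reads outside genes and the lowest level of both genes, at 57.9 CPM for Gad1 and 255 CPM for Gad2. The part of that share in the ratio was not tested. The criterion was applied to 24 groups of values and flagged 1, and chance flags about 1 in 20 groups.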

How the results depend on the processing

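Every sign change below is of a log2 fold change that was not called, and the cause was not tested. The single call among the 6 genes, Gad2 lower than input, was counted as 0 calls over libraries of annotation 2 alone, with the filter by group sizes, with no low-count filter, with no term for library set and with saline withdrawal replicate 2 of set A placed in set B; leaving out 1 library gave 0 to 1 calls, 0 in 11 of 15 fits. Annotation 2 alone and the placing of replicate 2 in set B were alternatives for this comparison chosen after seeing the data. The filter by group sizes was run first and gave no call, and the filter by design that replaced it gave the call. None of the 6 genes was called among purified libraries in any setting tried. With the share of reads outside genes as a covariate, Gad1 turned to 0.17 against input; non-escalating against saline turned to -0.14 (Abat), -0.15 (Gabbr1), -0.22 (Gad1) and -0.16 (Gad2); non-escalating withdrawal against none turned to 0.088 (Abat), 0.14 (Gabbr2), 0.10 (Gad1) and 0.22 (Gphn); saline withdrawal against none turned to 0.23 (Gabbr1). Without the libraries over 50% outside genes, non-escalating withdrawal against none turned to 0.48 (Abat), 0.35 (Gabbr2), 0.25 (Gad1), 0.11 (Gad2) and 0.39 (Gphn). Saline withdrawal against none then turned to 0.45 (Abat), 0.53 (Gabbr1), 0.43 (Gabbr2), 0.30 (Gad1) and 0.35 (Gphn), and the interaction to -0.076 (Gabbr2) and -0.045 (Gad1). In set B alone, cocaine against saline after withdrawal turned to -0.083 (Abat), -0.094 (Gabbr1), -0.11 (Gabbr2), -0.12 (Gad1) and -0.050 (Gphn). In set A alone, non-escalating withdrawal against none turned to 0.18 (Abat), 0.087 (Gabbr2) and 0.16 (Gphn). The same comparison turned to -0.018 (Gabbr1), 0.0070 (Gad1), 0.18 (Gad2) and 0.077 (Gphn) with no set term, and for Gphn to 0.017 with DESeq2, 0.017 with RLE factors and 0.038 with replicate 2 in set B, which also turned saline withdrawal against none to 0.024 (Gabbr1). Under voom Gabbr1 turned to -0.024 for non-escalating against saline and to -0.010 for non-escalating withdrawal against none.

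Leaving out 1 library at a time moved non-escalating against saline between -0.11 and 0.30 (Abat), -0.017 and 0.30 (Gabbr1), -0.049 and 0.32 (Gad1), -0.046 and 0.20 (Gad2), and -0.18 and 0.093 (Gphn). It moved escalating against non-escalating between -0.059 and 0.81 (Gabbr1), -0.018 and 0.34 (Gad2), and -0.14 and 2.05 (Gphn), and escalating against saline between -0.48 and 0.087 (Gad1) and -0.14 and 2.04 (Gphn). Withdrawal against none ran between -0.077 and 0.27 (Gabbr1) and -0.20 and 0.092 (Gphn) after non-escalating cocaine and between -0.26 and 0.14 (Gabbr1) after saline. Gabbr1 against input ran between -0.024 and 0.49.

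Same-numbered libraries were not more alike than others. Their deviations from group means had a median correlation of -0.19 over 25 pairs, against -0.07 over 78 other pairs. The 25 values ran from -0.54 to 0.57, so this check cannot settle whether the replicate numbers pair the samples. The fit with the replicate block turned Gad2 to -0.0023 for non-escalating against saline and changed no call. Depth limits Gabbr2 most, with 84 counts in the library where it had fewest.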
